A study of Mus musculus with 8 samples.

Results

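Interferon-stimulated genes are the genes that cells switch on when an interferon, a cytokine released against viruses and other microbes, binds its receptor. A list of 42 such genes was followed by symbol through a table of 24013 gene symbols measured by RNA sequencing in sorted cells of the mouse intestinal epithelium. All 42 were in the table. Of these, 41 were among the 11190 genes that reached 1 FPKM (fragments mapped to a gene, scaled to the length of its transcript and to the total of the library) in at least 2 libraries and were tested. Iigp1, a guanosine triphosphatase of the immunity-related family, was not tested and is given by its values.

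The cells came from Lyz1CreER; R26R-tdT mice of a mixed C57/BL6 and 129 background, aged 8 to 14 weeks, all given 1 dose of tamoxifen (10 mg per mouse). In these mice the Lyz1 promoter, active in Paneth cells, drives a tamoxifen-dependent Cre recombinase, which turns on the red protein tdTomato in the labelled cells and in whatever descends from them. Sorted cells were viable (DAPI-), not leukocytes by surface CD45, positive for the epithelial protein EpCAM and positive for tdTomato, in every group. Irradiated CD24- cells, called derivatives by the submitters, made 3 libraries from mice taken 5 days after radiation. Irradiated CD24+ cells, the gate for Paneth cells, made 3 libraries from mice at the same time after radiation. Non-irradiated CD24+ cells made 2 libraries. No CD24- sample without radiation was analysed here, and irradiated CD24- cells differ from non-irradiated CD24+ cells in both gate and treatment.

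Type I and type III interferons act through receptors that activate the kinases JAK1 and TYK2, which phosphorylate STAT proteins, STAT2 among them. With IRF9 these form a complex that binds the interferon-stimulated response element, while interferon gamma acts through STAT dimers on a different sequence, the gamma-activated site. The induced proteins include sensors of viral nucleic acid, enzymes and membrane proteins that block viral replication, and the transcription factors and STATs of the pathway itself, so that the response feeds its own signal. In the intestinal epithelium this programme is known for defence against enteric viruses, and type III interferon acts there mainly on epithelial cells.

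The response element is a feature that many interferon-stimulated genes are known to share. The promoters of 4 members are printed because the values below turn on these genes. Isg15 and Ifit1 had the largest differences between irradiated CD24- and CD24+ cells, Irf7 was the member with the highest mean level, and Gbp2 was the only tested member whose mean log2 level was lower in CD24- than in CD24+ irradiated cells. Each sequence is the 120 bases before the RefSeq gene start in build GRCm38.p6, read 5′ to 3′ on the strand of the gene. Capitals mark each match to the core of the response element (GAAA, any 2 bases, GAAA) on either strand, and touching or overlapping matches run together.
Isg15, chr4:156200819-156200938, minus strand: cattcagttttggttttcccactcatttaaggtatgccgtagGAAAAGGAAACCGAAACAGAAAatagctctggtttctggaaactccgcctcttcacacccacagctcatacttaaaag
Ifit1, chr19:34640769-34640888, plus strand: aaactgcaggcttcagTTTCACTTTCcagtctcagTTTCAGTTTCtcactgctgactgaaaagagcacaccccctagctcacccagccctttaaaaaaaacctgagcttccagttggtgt
Irf7, chr7:141266425-141266544, minus strand: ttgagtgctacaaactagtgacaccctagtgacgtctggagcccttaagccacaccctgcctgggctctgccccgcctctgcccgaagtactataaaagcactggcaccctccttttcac
Gbp2, chr3:142620543-142620662, plus strand: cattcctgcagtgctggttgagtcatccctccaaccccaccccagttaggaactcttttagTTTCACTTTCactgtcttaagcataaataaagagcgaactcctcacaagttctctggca
Isg15 held 3 overlapping matches, Ifit1 held 2 and Gbp2 held 1. The Irf7 window held no match to these letters, which says nothing about the factors that bind there. The deposited values were made on another build, mm9, so these coordinates are those of the RefSeq table only.

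Over windows of 300 bases (250 before the start and 50 after it), 31 of the 42 members were matched by symbol, in 35 windows. The response element core was in 19 of the 35 member windows (54.3%), against 1131 of all 32851 windows in the table (3.44%). The core of the gamma-activated site (TTC, any 3 bases, GAA, which reads the same on both strands) was in 9 member windows (25.7%), against 2726 of all windows (8.3%). Matches to both cores overlapped in 1 member window. Counted by gene, 19 of 31 members held the response element core and 9 held the other. These are matches of letters and not measured binding sites.

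The FPKM table carried no read counts, and the depth of each library was approximated from the spacing of low values at 34900000 to 45200000 reads. Between 9362 and 10697 genes per library reached 1 FPKM. Non-irradiated replicate 1 was the odd library, its median-of-ratios scaling factor being 0.528, against 0.859 to 0.993 in the irradiated CD24+ libraries and 0.867 in non-irradiated replicate 2. The irradiated CD24- libraries had factors of 1.33 to 1.48. The median log2 fold change of all tested genes was therefore not 0. It was 0.51 for irradiated CD24- over irradiated CD24+ cells, 0.88 for irradiated CD24- over non-irradiated CD24+ cells and 0.32 for irradiated over non-irradiated CD24+ cells. Those medians became 0.038, 0.032 and -0.034 with median-of-ratios scaling, and 1.60, 2.06 and 0.41 with scaling to a fixed total per library (TPM). Values called relative below are differences from the median of all genes as deposited. In such bulk samples, fewer cells of a type and less RNA per cell cannot be told apart.

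The sort labels were checked against marker genes. The 9 Paneth cell markers summed to between 3647 and 24196 FPKM in irradiated CD24- cells, 299010 to 328280 FPKM in irradiated CD24+ cells, and 356960 and 441320 FPKM in the non-irradiated libraries. The 12 markers of enterocytes, the absorptive cells of the epithelium, ran the other way. They summed to 16822, 22234 and 36880 FPKM in irradiated CD24- cells, to 902, 776 and 1320 FPKM in irradiated CD24+ cells, and to 487 and 2360 FPKM in non-irradiated replicates 1 and 2. The 22 leukocyte markers in the table summed to between 2.33 and 20.6 FPKM in every library, with 1 of them (Emr1) listed at 0 throughout. The part of these differences in cell makeup in the results on interferon-stimulated genes was not tested.

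The 42 interferon-stimulated genes together were highest in irradiated CD24- cells, and the non-irradiated libraries stood far apart. They summed to 738, 1161 and 1400 FPKM in the irradiated CD24- libraries, to 187, 270 and 256 FPKM in the irradiated CD24+ libraries, and to 75.8 and 531 FPKM in non-irradiated replicates 1 and 2. The 3 irradiated CD24+ libraries thus lay between the 2 non-irradiated ones, and in these values all 3 CD24- libraries lay above every CD24+ library. After median-of-ratios scaling the sums were 500, 849 and 1051 in the irradiated CD24- libraries, 218, 272 and 266 in the irradiated CD24+ libraries, and 144 and 613 in the non-irradiated ones, so that non-irradiated replicate 2 passed CD24- replicate 1. Orders of single libraries given below are those of the deposited FPKM.

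**Figure D1:**
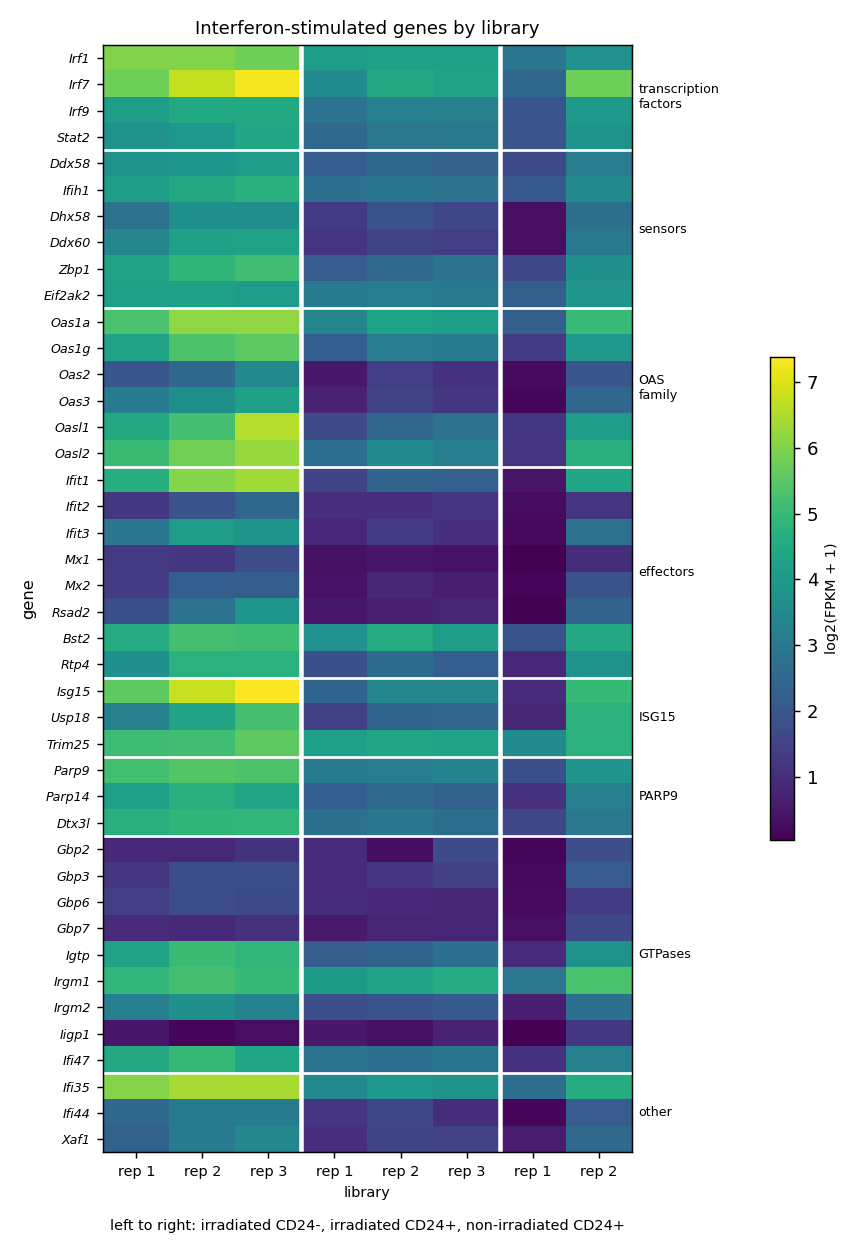
Level of each of the 42 genes (rows, grouped by role) in each of the 8 libraries (columns), as log2(FPKM + 1). In 39 of the 41 tested rows the 3 irradiated CD24- libraries on the left lie above every irradiated CD24+ library (59.1% of all genes). They lie above both non-irradiated libraries in 29 rows (70.1% of all genes). In the last pair of columns non-irradiated replicate 1 is darker than replicate 2 in every row.

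The first comparison asks how these genes differed between labelled cells outside and inside the CD24 gate of irradiated mice. Of the 41 tested members, irradiated CD24- cells had 36 above irradiated CD24+ cells and 0 below them by limma at a Benjamini-Hochberg adjusted p under 0.05. Over all genes tested 48.6% were called higher and 7.27% lower. In 39 members every CD24- library was above every irradiated CD24+ library, against 59.1% of all genes, and after median-of-ratios scaling this held for 34 members, against 37.0% of all genes. The median log2 fold change of the members was 1.79, with a range of -0.055 to 3.61, against 0.51 over all genes. In the deposited values, 38 of the 41 lay above that median of all genes. With median-of-ratios scaling, 32.4% of all genes were called higher and 24.4% lower, and among the members 22 were called higher and 0 lower. With scaling to TPM, 89.4% of all genes and 40 members were called higher.

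The 4 transcription factors of the response, Irf1, Irf7, Irf9 and Stat2, were all called higher in CD24- cells. Irf9 and Stat2 lost the call with median-of-ratios scaling and without a filter on low values, and Irf7 without that filter and with robust moderation. Irf7, the factor that amplifies interferon production, stood at 53.6, 107 and 155 FPKM in the irradiated CD24- libraries, 11.1, 22.1 and 18.6 FPKM in the irradiated CD24+ libraries, and 4.69 and 53.6 FPKM in the non-irradiated libraries. All CD24- values were above all irradiated CD24+ values, and non-irradiated replicate 2 reached the lowest of them. Its log2 fold change between the irradiated gates was 2.47 ± 0.67 (SE, limma adjusted p = 0.009). Irf1, induced most strongly by interferon gamma, was among the members with the least spread in the irradiated groups. It stood at 62.3, 62.3 and 53.3 FPKM in irradiated CD24- cells, 16.8, 17.8 and 17.2 FPKM in irradiated CD24+ cells, and 6.56 and 12.5 FPKM in non-irradiated cells, with no overlap between any of the groups. The log2 fold change between the irradiated gates was 1.72 ± 0.23 (SE, limma adjusted p = 0.000107), the smallest adjusted p among the members. Irf9, the DNA-binding part of the type I and III complex, stood at 16.6, 21.7 and 21.8 FPKM in irradiated CD24- cells, 6.12, 8.47 and 8.47 FPKM in irradiated CD24+ cells, and 2.96 and 14.9 FPKM in non-irradiated cells. Stat2, its partner, stood at 12.9, 14.6 and 20.9 FPKM, then 4.87, 6.75 and 6.85 FPKM, and 2.90 and 13.0 FPKM in the same groups. Both were higher in every CD24- library than in any irradiated CD24+ library, with log2 fold changes of 1.28 ± 0.40 and 1.25 ± 0.39 (SE).

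The sensors of foreign or misplaced nucleic acid were called higher in 6 of 6 cases, with log2 fold changes from 1.10 to 2.62. They comprise Ddx58 (which encodes RIG-I), Ifih1 (MDA5), Dhx58 (LGP2), Ddx60, the Z-form nucleic acid sensor Zbp1, and Eif2ak2, the kinase PKR that halts translation. Dhx58 and Eif2ak2 lost the call with median-of-ratios scaling and without a filter, and Dhx58 also with robust moderation. Ddx60, a helicase linked to RIG-I signalling, had the largest difference of the 6. It stood at 9.49, 18.1 and 18.4 FPKM in irradiated CD24- cells, 1.19, 1.93 and 1.63 FPKM in irradiated CD24+ cells, and 0.255 and 6.97 FPKM in non-irradiated cells. Its CD24- values were above those of all CD24+ libraries, although after median-of-ratios scaling non-irradiated replicate 2 (8.04) passed CD24- replicate 1 (6.42). The log2 fold change between the irradiated gates was 2.62 ± 0.52 (SE, limma adjusted p = 0.00144). Ifih1, the sensor of long double-stranded RNA, stood at 16.7, 21.2 and 25 FPKM in irradiated CD24- cells, 5.54, 6.41 and 5.79 FPKM in irradiated CD24+ cells, and 3.23 and 10.4 FPKM in non-irradiated cells, again without overlap between the gates. The log2 fold changes of Zbp1, Dhx58 and Ddx58 were 2.26, 1.80 and 1.60. Eif2ak2 had the smallest difference, at 17.5, 17.4 and 16.2 FPKM in irradiated CD24- cells against 7.30, 7.97 and 7.01 FPKM in irradiated CD24+ cells.

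All 6 members of the oligoadenylate synthetase family, whose enzymes make the messenger that activates RNase L, were called higher, with a median log2 fold change of 2.39. Oas1a and Oas2 lost the call with median-of-ratios scaling, without a filter and with robust moderation, and Oasl2 with robust moderation. Oasl1 and Oasl2, relatives of these enzymes, had the largest log2 fold changes on the log2(FPKM + 1) scale, while by the ratio of group means Oas3 (9.98) came before Oasl2 (6.74). Oasl1 stood at 21.6, 35.5 and 94.5 FPKM in irradiated CD24- cells, 2.34, 4.55 and 5.81 FPKM in irradiated CD24+ cells, and 1.35 and 15.7 FPKM in non-irradiated cells. Oasl2 stood at 32.2, 55.9 and 74.7 FPKM in irradiated CD24- cells, 5.47, 10.6 and 8.09 FPKM in irradiated CD24+ cells, and 1.26 and 25.1 FPKM in non-irradiated cells. In both genes replicate 3 was the highest and replicate 1 the lowest of the CD24- libraries. Their log2 fold changes were 3.09 ± 0.66 and 2.57 ± 0.69 (SE). Oas1a stood at 37.8, 69.2 and 71.3 FPKM in irradiated CD24- cells, 9.62, 18.8 and 16.9 FPKM in irradiated CD24+ cells, and 3.78 and 31.5 FPKM in non-irradiated cells. Oas1a and Oas1g are near-identical copies that share reads, so the split between them is uncertain. Oas3, the largest enzyme of the family, stood at 7.25, 12.1 and 17.9 FPKM in irradiated CD24- cells, 0.648, 1.78 and 1.31 FPKM in irradiated CD24+ cells, and 0.103 and 4.57 FPKM in non-irradiated cells. Its mean in irradiated CD24- cells was 9.98 times that in irradiated CD24+ cells. The remaining members of the family, Oas1g and Oas2, had log2 fold changes of 2.24 and 1.67.

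Of the 8 antiviral effectors, 7 were called higher and Bst2 was not. Ifit2 and Mx2 lost the call with median-of-ratios scaling, without a filter and with robust moderation, Rtp4 without a filter and with robust moderation, and Rsad2 with robust moderation. Ifit1, which binds viral RNA that lacks the cap marks of host RNA, had the largest log2 fold change of all members at 3.61 ± 0.79 (SE, limma adjusted p = 0.00254). It stood at 23.4, 65.2 and 81.9 FPKM in irradiated CD24- cells, 1.90, 4.16 and 3.92 FPKM in irradiated CD24+ cells, and 0.359 and 19.9 FPKM in non-irradiated cells. The lowest CD24- library was above the highest CD24+ library, irradiated or not, but after median-of-ratios scaling non-irradiated replicate 2 (23.0) passed CD24- replicate 1 (15.9). Ifit3, its binding partner, stood at 6.50, 15.8 and 13.5 FPKM in irradiated CD24- cells, 0.844, 1.47 and 1.06 FPKM in irradiated CD24+ cells, and 0.147 and 6.05 FPKM in non-irradiated cells. Rtp4 stood at 12.3, 25.5 and 25.7 FPKM in irradiated CD24- cells, 2.52, 5.20 and 3.69 FPKM in irradiated CD24+ cells, and 0.808 and 13.1 FPKM in non-irradiated cells, where replicate 2 passed the lowest CD24- library. The dynamin-like Mx1 and Mx2, and Rsad2, which makes a chain-terminating nucleotide, were low and were also called, with log2 fold changes of 1.02, 1.28 and 2.18. Rsad2 stood at 2.58, 5.91 and 13.8 FPKM in irradiated CD24- cells, 0.410, 0.606 and 0.727 FPKM in irradiated CD24+ cells, and 0.0497 and 4.04 FPKM in non-irradiated cells. Ifit2, a relative of Ifit1, had the smallest called difference of the effectors, with a log2 fold change of 0.80 ± 0.30 (SE). Bst2, the tetherin that holds budding virus at the membrane, stood at 22.6, 36.3 and 33.3 FPKM in irradiated CD24- cells, 12.6, 22.4 and 16.0 FPKM in irradiated CD24+ cells, and 2.84 and 21.2 FPKM in non-irradiated cells. The irradiated groups of Bst2 were barely apart and overlapped after median-of-ratios scaling, and the log2 fold change of 0.83 ± 0.51 (SE) had a limma adjusted p of 0.187. With the replicate number as a block in the fit, Bst2 and Irgm1 were called too.

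Isg15, Usp18 and Trim25 serve the attachment and removal of ISG15, a ubiquitin-like protein, or the ubiquitylation of RIG-I, and all 3 were called higher. Usp18 lost the call with median-of-ratios scaling, without a filter and with robust moderation, and Trim25 with that scaling. Isg15 stood at 46.5, 107 and 167 FPKM in irradiated CD24- cells, 4.31, 9.31 and 9.72 FPKM in irradiated CD24+ cells, and 0.907 and 30.2 FPKM in non-irradiated cells. All 3 CD24- libraries were above all CD24+ libraries, although after median-of-ratios scaling non-irradiated replicate 2 (34.8) passed CD24- replicate 1 (31.5). The log2 fold change between the irradiated gates was 3.51 ± 0.81 (SE, limma adjusted p = 0.00357). Divided within each replicate number, CD24- over irradiated CD24+ cells gave ratios of 10.8, 11.5 and 17.1 for Isg15. Usp18, which removes ISG15 and dampens the type I receptor, stood at 8.36, 19.0 and 36.6 FPKM in irradiated CD24- cells, 1.66, 4.27 and 4.36 FPKM in irradiated CD24+ cells, and 0.763 and 26.3 FPKM in non-irradiated cells. For Usp18 non-irradiated replicate 2 was above 2 of the 3 CD24- libraries. Trim25, a ubiquitin ligase, stood at 32.7, 34.2 and 46.4 FPKM in irradiated CD24- cells, 17, 19.4 and 18.3 FPKM in irradiated CD24+ cells, and 10.8 and 25.4 FPKM in non-irradiated cells, a log2 fold change of 1.0 ± 0.28 (SE) between the irradiated gates.

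Parp9, Dtx3l and Parp14, an ADP-ribosyltransferase group in which PARP9 and DTX3L act as a pair, were all called higher, within a narrow span of log2 fold changes from 2.01 to 2.15. Parp9 stood at 35.1, 42 and 39.5 FPKM in irradiated CD24- cells, 7.22, 7.85 and 8.99 FPKM in irradiated CD24+ cells, and 2.56 and 13.3 FPKM in non-irradiated cells. Dtx3l stood at 23.9, 27.9 and 28.6 FPKM in irradiated CD24- cells, 5.76, 6.51 and 5.46 FPKM in irradiated CD24+ cells, and 2.03 and 6.73 FPKM in non-irradiated cells. Parp9 and Dtx3l lie on opposite strands and overlap, and the library kit keeps no strand, so 10.3% of the Parp9 exon bases could take reads of either gene. Among the other induced proteins Ifi35, Ifi44 and Xaf1 were all called higher, with log2 fold changes of 2.54, 1.65 and 1.62, of which Ifi44 and Xaf1 lost the call with median-of-ratios scaling. Ifi35 stood at 65.7, 84.6 and 84.6 FPKM in irradiated CD24- cells, 10.3, 14.6 and 13.0 FPKM in irradiated CD24+ cells, and 5.43 and 22.9 FPKM in non-irradiated cells, a log2 fold change of 2.54 ± 0.39 (SE, limma adjusted p = 0.000246) between the irradiated gates. An antisense gene overlaps 17.4% of the Ifi35 exon bases.

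The guanosine triphosphatases, which attack the vacuoles of intracellular microbes and answer mainly to interferon gamma, were the group that parted. Of 8 tested, 4 were called higher, namely Ifi47, Igtp, Irgm2 and Gbp6, and Gbp2, Gbp3, Gbp7 and Irgm1 were not. Irgm2 and Gbp6 lost the call with median-of-ratios scaling and without a filter. Igtp stood at 18.5, 31.9 and 28.1 FPKM in irradiated CD24- cells, 3.62, 4.30 and 5.56 FPKM in irradiated CD24+ cells, and 0.886 and 12.8 FPKM in non-irradiated cells. Its log2 fold change between the irradiated gates was 2.29 ± 0.55 (SE, limma adjusted p = 0.0043), and those of Ifi47, Irgm2 and Gbp6 were 1.79, 1.46 and 0.74. Ifi47 stood at 21.1, 30.3 and 19.7 FPKM in irradiated CD24- cells, 6.17, 5.60 and 6.38 FPKM in irradiated CD24+ cells, and 1.15 and 8.41 FPKM in non-irradiated cells. Irgm1, a regulator of the other immunity-related members, stood at 28.5, 36.5 and 30.1 FPKM in irradiated CD24- cells, 15.5, 18.2 and 22.6 FPKM in irradiated CD24+ cells, and 6.79 and 37.7 FPKM in non-irradiated cells. Gbp2, a guanylate-binding protein, stood at 0.791, 0.831 and 1.15 FPKM in irradiated CD24- cells, 0.923, 0.228 and 2.35 FPKM in irradiated CD24+ cells, and 0.0859 and 2.41 FPKM in non-irradiated cells, so that all 3 groups overlapped. Its log2 fold change between the irradiated gates was -0.055 ± 0.41 (SE), or -0.56 relative to the median gene, and its sign turned with a pseudocount of 0.1, with scaling to TPM, with array weights and without irradiated CD24+ replicate 3. Gbp3 and Gbp7 had log2 fold changes of 0.39 and 0.25, below the median of all genes. Iigp1 stood at 0.385, 0.110 and 0.263 FPKM in irradiated CD24- cells, 0.458, 0.297 and 0.668 FPKM in irradiated CD24+ cells, and 0.0247 and 1.36 FPKM in non-irradiated cells. The guanylate-binding proteins are a multigene family, and 66.3% of the Gbp6 exon bases overlap another gene on the same strand, so the value of Gbp6 is uncertain.

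Leaving out each of the 8 libraries in turn kept 33 of the 36 calls in every case. Ifit2 lost its call without irradiated CD24+ replicate 1, 2 or 3 or CD24- replicate 2 or 3 (limma adjusted p from 0.0585 to 0.116). Usp18 did so without irradiated CD24+ replicate 1 (adjusted p = 0.0871) or CD24- replicate 2 or 3 (0.0701 and 0.0877), and Gbp6 without irradiated CD24+ replicate 2 or 3 (0.0560 and 0.0550) or CD24- replicate 2 (0.0674).

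**Figure D2:**
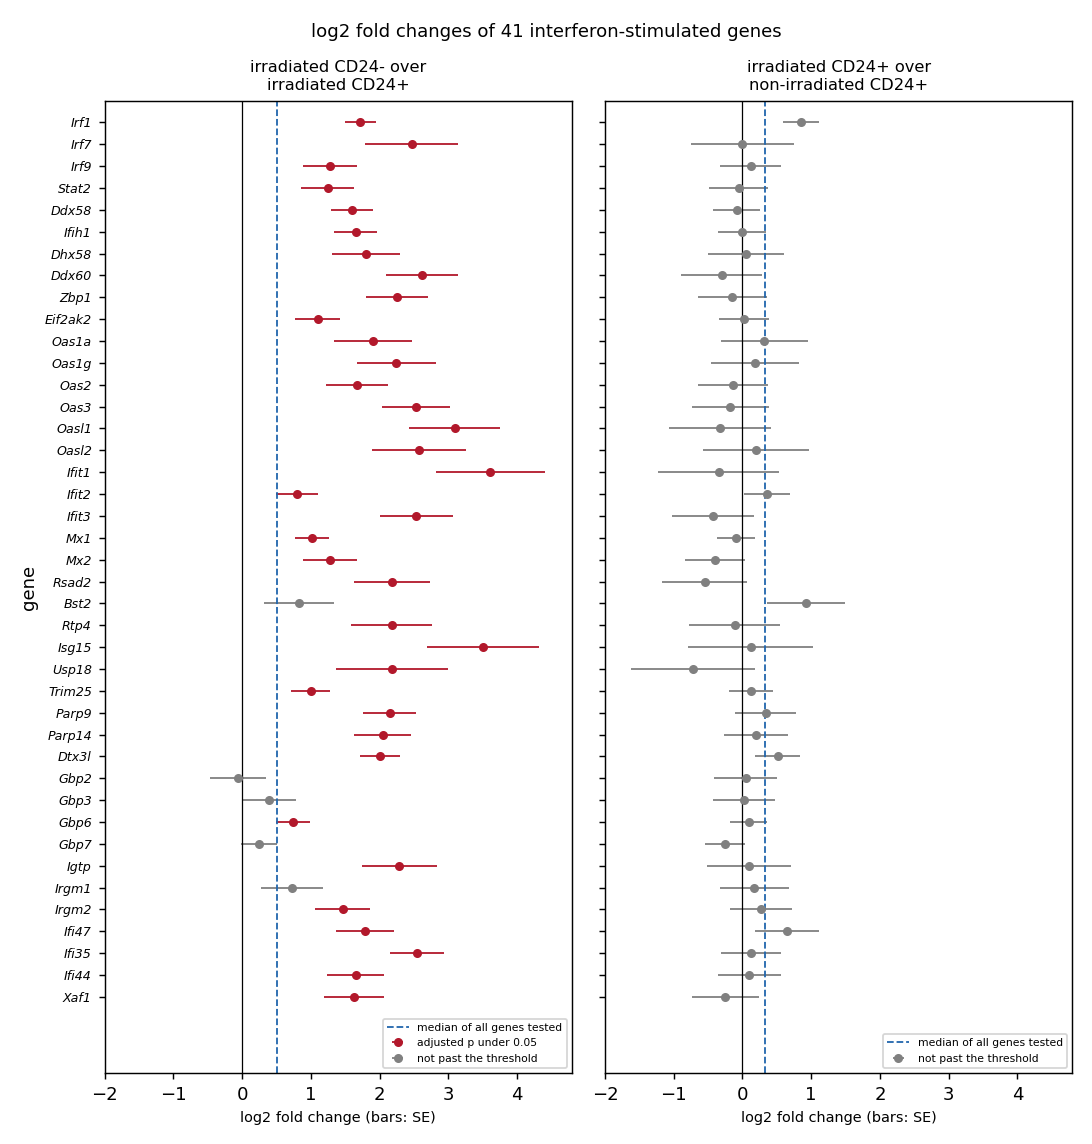
log2 fold changes (x axis, points, with limma's SE as bars) of the 41 tested genes (y axis) in 2 comparisons, with the median of all genes tested as a dashed line. On the left 36 genes are past the threshold and Bst2, Gbp2, Gbp3, Gbp7 and Irgm1 are not, and on the right no gene is.

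In both irradiated groups replicate 1 was the lowest library for most members. Replicate 1 was the lowest CD24- library for 36 of the 41 members, against 19.0% of all genes, and the lowest irradiated CD24+ library for 35, against 59.3% of all genes. After median-of-ratios scaling these counts were 39, against 31.7% of all genes, and 27, against 29.1% of all genes. The highest CD24- library was replicate 3 for 25 members and replicate 2 for 14. The summed level of the members in CD24- over irradiated CD24+ cells of the same replicate number was 3.95, 4.30 and 5.46. The summed enterocyte markers gave ratios of 18.6, 28.7 and 27.9 for the same pairs. Within the irradiated CD24+ group, replicate 3 had the most enterocyte marker signal, while replicate 2 had the highest level for 24 members and replicate 3 for 16. For the counts of highest libraries in both groups, the shares over all genes were not computed. The SD of log2(FPKM + 1) between replicates had a median over members of 0.354 in irradiated CD24- cells and 0.238 in irradiated CD24+ cells, against 0.196 and 0.139 over all genes.

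The second comparison asks how the CD24+ gate differed after radiation, and it rests on the non-irradiated pair. Limma called 0 of 41 members higher and 0 lower, as it called 0% of all genes higher and 0% lower. At an unadjusted p under 0.05, 1 member was higher, against 12.2% of all genes, and 0 were lower, against 0.536% of all genes. The 1 member was Irf1, with a log2 fold change of 0.85 ± 0.26 in irradiated over non-irradiated CD24+ cells (SE, limma adjusted p = 0.348), and 0.53 relative to the median gene. The median over the members was 0.049, against 0.32 over all genes. Isg15 had a log2 fold change of 0.12 ± 0.91 and Irf7 of -0.00062 ± 0.75 (SE), so that changes of several fold in either direction lie within the error.

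The non-irradiated libraries differed from each other in the same genes far more than in most others. Replicate 2 exceeded replicate 1 by more than 1 on the log2(FPKM + 1) scale for 38 of the 41 members, against 10.0% of all genes. The exceptions were Irf1, Ifit2 and Mx1. Of these, Mx1 and Ifit2 are held down by the added 1, their FPKM in replicate 2 being 45.9 and 5.78 times that in replicate 1. The median difference was 2.05 over members, with a range of 0.84 to 4.03, against 0.53 over all genes. After median-of-ratios scaling, which evens out the low level of most genes in replicate 1, the difference was still above 1 for 35 members, against 2.33% of all genes. The ratio of replicate 2 to replicate 1 was 81.3 for Rsad2, 44.5 for Oas3, 41.1 for Ifit3, 33.3 for Isg15, 55.4 for Ifit1, 34.5 for Usp18, 11.4 for Irf7, 11.7 for Oasl1, 20.0 for Oasl2, 16.2 for Rtp4 and 14.4 for Igtp. It was 5.78 for Ifit2 and 1.91 for Irf1. In replicate 1, Mx1, Mx2, Rsad2, Gbp2 and Iigp1 rested on fewer than 10 approximated reads each.

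**Figure D3:**
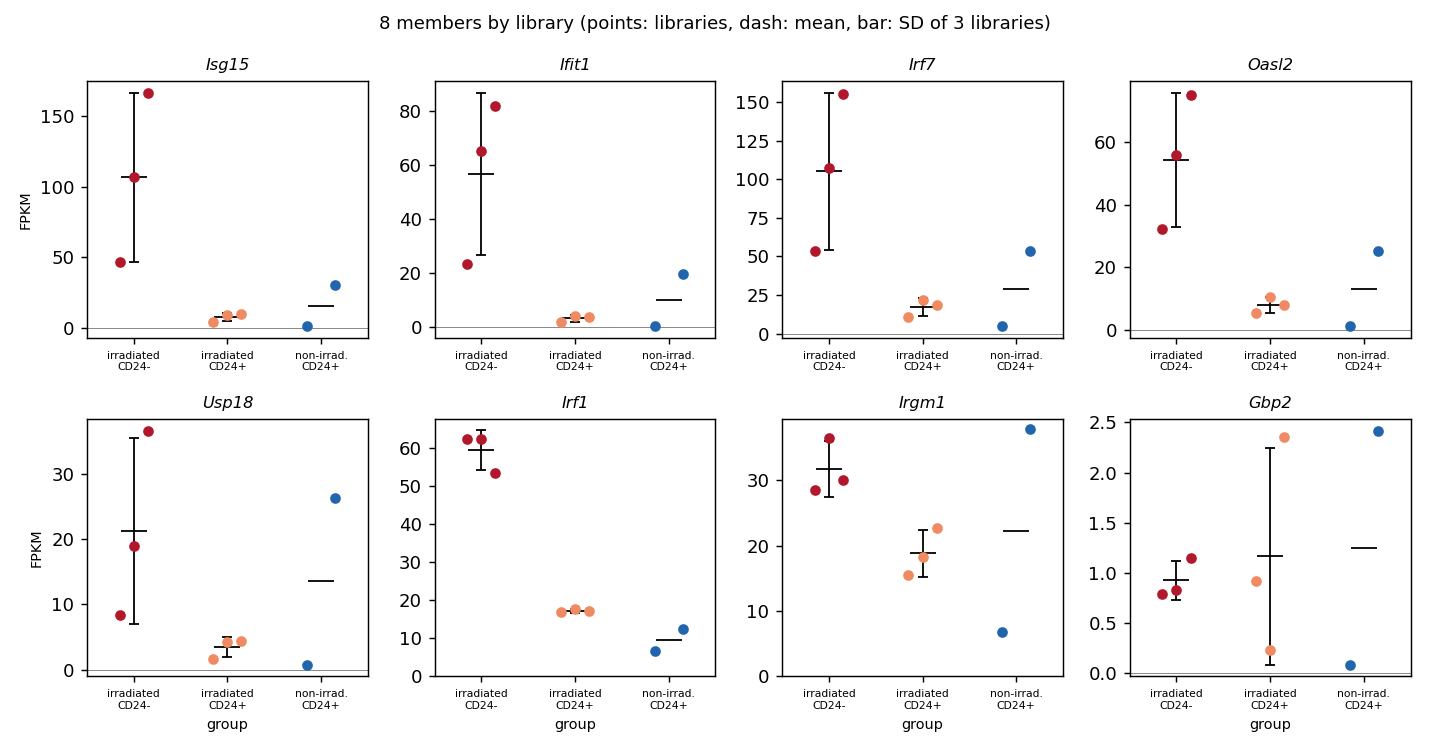
FPKM (y axis) of 8 members in each library, with groups along the x axis, a dash for the group mean and a bar for the SD in the groups of 3 libraries. The non-irradiated points lie on either side of the irradiated CD24+ points in every panel but that of Irf1, where both lie below.

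The irradiated CD24+ libraries fell between the 2 non-irradiated ones. Non-irradiated replicate 2 was above every irradiated CD24+ library for 39 of the 41 members, against 16.9% of all genes, with Irf1 and Bst2 as the exceptions. Non-irradiated replicate 1 was below every irradiated CD24+ library for 41 members, against 90.7% of all genes, so that side is shared with most genes. With median-of-ratios scaling these counts were 40 members for replicate 2, against 30.5% of all genes, and 38 for replicate 1, against 30.8% of all genes. The comparison therefore turned on which library was kept. Without non-irradiated replicate 2, limma called 27 of 40 members higher in irradiated CD24+ cells, where 46.4% of all genes were called higher, and the median over members was 1.10, against 0.59 over all genes. Without non-irradiated replicate 1 it called 0, and the median was -0.98, against 0.071 over all genes. In both fits the lone non-irradiated library is assumed to vary like the other groups.

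Enterocyte markers differed between the non-irradiated libraries in the same direction. All 12 differed by more than 1 on the log2 scale, and their sum in replicate 2 was 4.84 times that in replicate 1, while the sum of the interferon-stimulated genes was 7.0 times. After median-of-ratios scaling these ratios were 2.95 and 4.27. The enterocyte sum of replicate 2 was 14.0%, 10.6% and 6.40% of the sums of CD24- replicates 1, 2 and 3, and its sum of interferon-stimulated genes was 72.0%, 45.8% and 37.9% of theirs. After scaling these shares were 23.9%, 16.7% and 9.83% for enterocyte markers and 123%, 72.1% and 58.3% for interferon-stimulated genes. The 22 leukocyte markers summed to 8.33 FPKM in replicate 2 and 4.84 FPKM in replicate 1, and 0 of the 4 that were tested differed by more than 1. The erythroid markers summed to 53.1 FPKM in replicate 2 and 2.79 FPKM in replicate 1, and to at most 0.138 FPKM in any irradiated library. The 9 Paneth markers summed to 356960 FPKM in replicate 2 and 441320 FPKM in replicate 1. The part of these markers in the difference between the libraries was not tested.

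**Figure D4:**
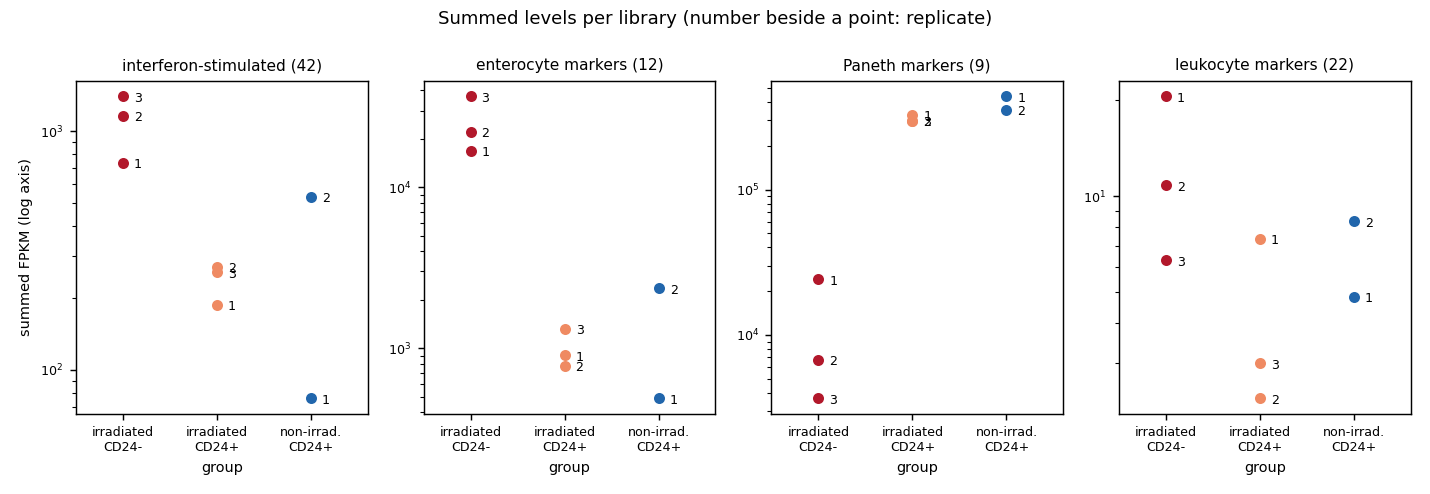
Summed FPKM (log axis) of the 42 interferon-stimulated genes and of 3 sets of cell type markers in each library, with groups along the x axis and the replicate number beside each point. Non-irradiated replicate 2 is near the irradiated CD24- libraries in the first panel (531 against 738 to 1400 FPKM) and well below them in enterocyte markers (2360 against 16822 to 36880 FPKM).

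Members that differed more between the non-irradiated libraries also tended to differ more between the irradiated gates. Across the 41 members the 2 differences had a Pearson r of 0.696 and a Spearman rho of 0.705, against 0.433 and 0.297 across all 11190 genes. The 2 differences share no library, but genes of low level have small differences in both on the log2(FPKM + 1) scale, and genes are not independent replicates. Gbp2, Gbp3, Gbp7 and Irgm1 were above every CD24- library in non-irradiated replicate 2, and such an order was found in 12.2% of all genes. After median-of-ratios scaling it was found in 8 members and in 37.0% of all genes.

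**Figure D5:**
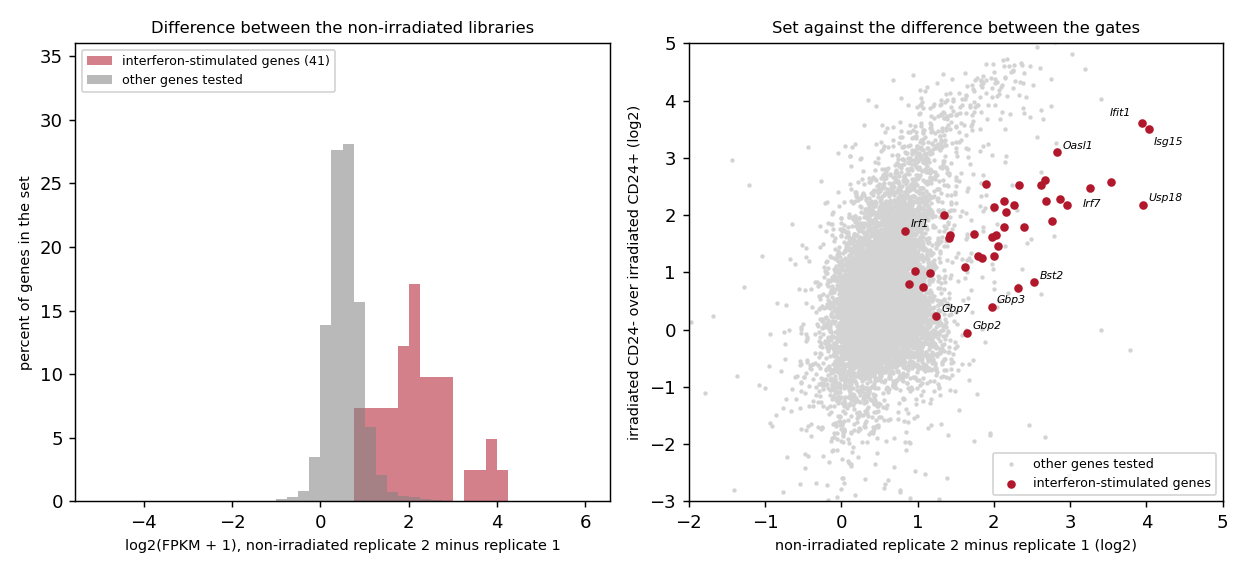
Left, the share of genes (y axis) by the difference in log2(FPKM + 1) between non-irradiated replicates 2 and 1 (x axis), for 41 interferon-stimulated genes and all other genes tested. Right, that difference (x axis) against the log2 fold change of irradiated CD24- over irradiated CD24+ cells (y axis), where Gbp2, Gbp3 and Gbp7 lie low; genes outside the axes are not drawn.

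Irradiated CD24- cells were also set against non-irradiated CD24+ cells, a comparison that shares its libraries with both of the others. Limma called 35 of the 41 members higher and 0 lower, against 65.7% of all genes higher and 4.99% lower. The 6 members not called were Mx2, Usp18, Gbp2, Gbp3, Gbp7 and Irgm1. All CD24- libraries were above both non-irradiated libraries for 29 members, against 70.1% of all genes, a share close to that of the members. After median-of-ratios scaling this held for 6 members (Irf1, Parp9, Parp14, Dtx3l, Ifi47 and Ifi35), against 37.1% of all genes. The median log2 fold change was 1.75 over members and 0.88 over all genes. The largest were Isg15 at 3.63 ± 0.91, Ifit1 at 3.26 ± 0.89, Oasl1 at 2.77 ± 0.74, Oasl2 at 2.77 ± 0.77, Ifi35 at 2.67 ± 0.43, Irf1 at 2.57 ± 0.26, Dtx3l at 2.52 ± 0.33 and Parp9 at 2.48 ± 0.44 (SE). Without non-irradiated replicate 1 12 members were called higher, against 49.5% of all genes, and 1 lower (Gbp7), and Isg15, Ifit1, Oasl1 and Oasl2 were among the calls lost. Without replicate 2 the count of higher calls was 39 of 40, against 74.5% of all genes. With median-of-ratios scaling it was 9, against 29.6% of all genes.

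The genes around the response were described from lists that hold no member. Of 14 interferon genes listed, 12 were in the table and 0 passed the filter. Of these 12, 8 were listed at 0 in every library, and the sum over the 12 was at most 0.164 FPKM in any library. A value listed at 0 in a table without counts can also reflect how reads were assigned. Of the 9 receptor chains and kinases in the table, all 9 were tested and called higher in irradiated CD24- than in irradiated CD24+ cells. Their median log2 fold change was 1.21, against 0.51 over all genes, of which 48.6% were called higher. Ifngr2 and Ifngr1, the chains of the interferon gamma receptor, had log2 fold changes of 2.23 ± 0.24 and 1.69 ± 0.23 (SE). Ifngr2 stood at 111, 115 and 101 FPKM in irradiated CD24- cells, 24.2, 23.4 and 19.9 FPKM in irradiated CD24+ cells, and 11.3 and 20.3 FPKM in non-irradiated cells, without overlap between the irradiated groups. Ifnlr1, the specific chain of the type III receptor, stood at 4.57, 3.51 and 5.58 FPKM in irradiated CD24- cells, 0.999, 0.958 and 0.848 FPKM in irradiated CD24+ cells, and 0.550 and 1.03 FPKM in non-irradiated cells. The type I receptor chains Ifnar1 and Ifnar2 had log2 fold changes of 0.76 ± 0.20 and 1.13 ± 0.24 (SE), and the kinase gene Jak2 of 1.21 ± 0.19. Between the non-irradiated libraries 0 of the 9 receptors and kinases differed by more than 1 on the log2 scale, against 10.0% of all genes. Their median difference was 0.49, near the 0.53 of all genes.

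Among the other signal transcription factors, 7 of 8 tested were called higher in CD24- cells, against 48.6% of all genes. They included Irf2 (log2 fold change 1.3) and Irf8 (1.0). Of 16 tested genes of nucleic acid sensing upstream of interferon, 9 were called higher and 1 lower, a share of higher calls near the 48.6% of all genes. The adaptor genes Ticam1 (log2 fold change 2.03) and Mavs (1.47) and the endosomal RNA receptor gene Tlr3 (1.49) were among the 9. The 1 lower was Tmem173, which encodes the DNA-sensing adaptor STING, at 1.01, 1.11 and 0.868 FPKM in irradiated CD24- cells, 4.26, 4.65 and 7.73 FPKM in irradiated CD24+ cells, and 2.71 and 4.10 FPKM in non-irradiated cells. Its log2 fold change was -1.68 ± 0.22 (SE, limma adjusted p = 8.9e-05). Tmem173 kept its direction and call under every alternative that tested it, and the filter at 5 FPKM left it out.

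Of 11 tested negative regulators of interferon signalling, 3 were called higher (Pias4, Ptpn6 and Pias1) and 0 lower. That share of higher calls is below the 48.6% of all genes, and the median log2 fold change was 0.48, against 0.51 over all genes. Of 37 other interferon-induced genes tested, 29 were called higher and 2 lower, against 48.6% and 7.27% of all genes. Their median log2 fold change was 1.79, the same as that of the members at this rounding. Ube2l6, the conjugating enzyme for ISG15, had a log2 fold change of 3.24 ± 0.42, Psmb10 of the immunoproteasome 2.15 ± 0.30, the peptide transporter gene Tap2 1.99 ± 0.28, and B2m, the light chain of class I antigen presentation, 2.42 ± 0.35 (SE). B2m stood at 1669.6, 2177.9 and 1903.5 FPKM in irradiated CD24- cells, 379, 380 and 313 FPKM in irradiated CD24+ cells, and 164 and 356 FPKM in non-irradiated cells. The 2 lower were Ifitm2 and Ifitm3, membrane proteins that block virus entry, named after their values were seen. Ifitm3 stood at 50.009, 46.4 and 17.1 FPKM in irradiated CD24- cells, 105, 129 and 143 FPKM in irradiated CD24+ cells, and 18.1 and 72.6 FPKM in non-irradiated cells. Its log2 fold change between the irradiated gates was -1.83 ± 0.49 (SE, limma adjusted p = 0.00802), and that of Ifitm2 was -1.04 ± 0.35. With scaling to TPM Ifitm3 lost its call (adjusted p = 0.258) and Ifitm2 turned to 0.21. Ifitm2 also lost its call without irradiated CD24+ replicate 2 (adjusted p = 0.0802) or CD24- replicate 3 (0.0973). In irradiated over non-irradiated CD24+ cells limma called 0 of the 81 genes tested in these 5 lists. At an unadjusted p under 0.05, 10 were higher (12.3%), near the 12.2% of all genes. Against non-irradiated CD24+ cells, where 65.7% of all genes were called higher, irradiated CD24- cells had 9 of 9 receptors and kinases called higher. The count was 8 of 8 for signal transcription factors and 30 of 37 for other induced genes. For nucleic acid sensing it was 11 of 16, a share near that of all genes, with 1 lower. For negative regulators it was 6 of 11, a share below that of all genes.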

How the data were processed

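RNA of 8 sorted mouse samples was made into libraries with the Illumina TruSeq RNA kit v2, per the labels' protocols, a kit that keeps no strand. The authors deposited a table of FPKM per gene symbol; TopHat2 2.1.0, StringTie 1.3.4 and the build mm9 are named in the submitters' processing notes. Each library has its own column of FPKM, and no counts were used, so depth was approximated from the spacing of low values.

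Genes that reached 1 FPKM in 2 or more libraries were tested on log2(FPKM + 1), a scale that understates changes of low genes, with limma 3.58.1 (R 4.3.3, trended empirical Bayes, 3 groups in 1 fit) and Benjamini-Hochberg adjustment over all genes, with a threshold of 0.05. The script was tested on simulated data. Plots used matplotlib 3.10.9. The labels do not say that replicates are separate mice, and a p-value here reflects the spread of these samples, which may be technical. Same-numbered irradiated samples deviated together (r of 0.366, 0.231 and 0.402 over 11190 genes), so the numbers were treated as pairs in an alternative fit. "A called gene" passed the adjusted threshold. Promoters are from RefSeq tables of GRCm38.p6.

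The members and lists were chosen with earlier results of these data known. Values in all libraries are given for the 12 members of highest mean level, up to 8 called members of largest change per comparison, the 8 that differ most between the non-irradiated libraries, and Irf1, Irf7, Irf9 and Stat2, with others added to describe each role. From each pathway list up to 4 called genes of smallest p are named, with the receptor chains; some genes are not reported here. Alternatives changed the pseudocount, filter, scaling, samples, moderation, weights and block, and left out each library.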

Additional observations from a re-analysis of the deposited data

How the results depend on the processing

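Between the irradiated gates, the count of members called higher was 23 of 42 without a filter (31.4% of all genes) and 22 with median-of-ratios scaling (32.4%). It was 33 with a pseudocount of 0.1 (47.1% of all genes; Gbp6, Ifit2 and Usp18 lost), 31 of 33 with a filter at 5 FPKM (59.7%), 40 with TPM (89.4%), 26 with robust moderation (48.4%) and 39 with array weights (62.9%). The median of members was 2.17 with a pseudocount of 0.1, 2.05 with the 5 FPKM filter, 2.95 with TPM and 1.26 with median-of-ratios scaling. Against non-irradiated CD24+ cells, the count for irradiated CD24- cells was 23 without a filter (42% of all genes), 9 of 41 with median-of-ratios scaling (29.6%) and 22 of 41 with robust moderation (65.3%), the last 2 below the share of all genes, and the median was 2.92 with TPM. The causes were not tested.

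Leaving out each irradiated library in turn gave 33 to 36 higher and 0 lower between the irradiated gates. Over all genes 39% to 47.4% were called higher and 5.34% to 7.61% lower in these runs. The medians were 1.64 to 2.01, against 0.46 to 0.55 over all genes. For irradiated over non-irradiated CD24+ cells it gave 0 to 27 higher, 0 lower and medians of -0.98 to 1.10. For irradiated CD24- over non-irradiated CD24+ cells it gave 12 to 39 higher, 0 to 1 lower and medians of 0.74 to 3.04, and 12 of 35 calls were kept in every case.

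With the replicate number as a block, 38 members were higher in irradiated CD24- than in irradiated CD24+ cells (49.6% of all genes). Against non-irradiated cells 38 were higher (66.7% of all genes). Between the CD24+ groups 0 differed, where 0.688% of all genes were called higher and 0.134% lower. With the 6 irradiated libraries alone, chosen after seeing the data, the block gave 39 of 40 (55.7% of all genes). The pairing removed no call and moved no count by over 1.5 times.

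Of the values whose sign turned, all but that of Ifitm2 were near 0 in the fit to all 8 libraries as deposited. The turned values themselves reached -1.90 for Isg15 and 1.63 for Irf7. Those furthest from 0 came from fits without a non-irradiated library. For irradiated over non-irradiated CD24+ cells, Irf7 turned to 0.057 (pseudocount of 0.1), 0.11 (TPM), 0.20 (array weights), 1.63 (without non-irradiated replicate 2; -1.63 without replicate 1) and 0.27 (without irradiated CD24+ replicate 1). Stat2 turned to 0.051, 0.0091, 0.86 and 0.08 with TPM, array weights, without non-irradiated replicate 2 and without irradiated CD24+ replicate 1. Irf9 turned to -0.27 with median-of-ratios scaling and -0.88 without non-irradiated replicate 1, and was 1.12 without replicate 2. Isg15 turned to -0.16 and -1.90 in those 2 settings, was 2.13 without non-irradiated replicate 2, and turned to -0.03 and -0.06 without irradiated CD24+ replicates 2 and 3, and to -0.17 with the replicate block. Between the irradiated gates, Gbp2 turned to 0.11 (pseudocount of 0.1), 0.59 (TPM), 0.22 (array weights) and 0.32 (without irradiated CD24+ replicate 3; -0.40 without replicate 2), and Ifitm2 to 0.21 with TPM. Few reads limit Mx1, Mx2, Rsad2, Gbp2 and Iigp1 in non-irradiated replicate 1, although its approximated depth was the greatest of all libraries (45200000 reads).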
